A study of Capra hircus and Bos taurus with 7 samples.

Results

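The miR-148 and miR-152 family was followed through extracellular vesicles, the membrane-bound particles that cells shed, from reconstituted milk powders. Its members were taken by name: the rows bta-miR-148a, bta-miR-148b, bta-miR-148c, bta-miR-148d and bta-miR-152, 5 of the 364 mature microRNA (miRNA) rows in each library. Small RNA had been sequenced from 7 samples. There were 3 libraries of whole goat milk powder and 3 of skimmed goat milk powder, lettered A to C within each powder, and 1 library of commercial bovine powder. All 7 samples were reconstituted in warm water, and their vesicles were separated by size exclusion chromatography. The titles name the powders as whole or skimmed, the organism labels give goat or cattle, and nothing states whether the letters are separate packs, lots or repeat isolations. The p-values therefore speak of the spread among these libraries alone, and that spread may be technical.

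Members of this family share a seed, the short stretch near the start of a miRNA that pairs with target mRNAs, and differ mainly further along. They are known repressors of the DNA methyltransferase DNMT1 and of HLA-G, and miR-148a also acts on the low density lipoprotein receptor and so on cholesterol uptake. Secretory mammary epithelium makes much miR-148a, which is among the miRNAs best known from milk. Of the 5 members, 2 matched a gene symbol in the RefSeq table of the goat assembly ARS1.2: MIR148A lies within the long noncoding RNA gene LOC108635844, with NPVF and NFE2L3 as its nearest coding genes, and MIR148B lies within COPZ1, which encodes a subunit of the COPI coat of transport vesicles. No coordinates are printed, since no genome build is named for the counts.

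The libraries of whole powder held 6561887 to 11963849 miRNA reads, those of skimmed powder 7953807 to 9285189, and the bovine library 5675489. Levels are given as CPM, the reads of a row scaled to 1e+06 miRNA reads of its library, without a correction for length, and a level in vesicle RNA cannot tell apart fewer vesicles carrying a miRNA from less of it per vesicle. All 5 members had reads in every library. Epithelial miRNAs (7 rows, led by miR-200c, miR-200b and miR-375) took 9.85% to 11.4% of the reads of the goat libraries.

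The rows of the family were not independent of each other. Those of miR-152 and miR-148c held the same value in all 7 libraries. Their sum was a whole number of reads in 5 of 7 libraries, within 1e-06, while each row alone was whole in 2. Among all rows, 20 of them, in 10 groups, equalled another row in every library. The miR-148a and miR-148d rows were close without being equal. In whole powder miR-148a stood above miR-148d by a factor of 1.14 in library A, 1.16 in B and 1.15 in C. In skimmed powder the factors were 1.14 in A, 1.09 in B and 1.10 in C, and in the bovine library 1.16. The excess of miR-148a over miR-148d thus amounted to 4.42% to 7.54% of the reads of both rows in the 7 libraries. The factors of skimmed B and C lay below those of the other libraries, and skimmed A lay within the range of whole powder. No source used here states how reads that match both names were divided, so miR-148a is described below together with miR-148d, and miR-152 together with miR-148c. The miR-148b row held fractions of a read in all 7 libraries, so it may also share reads, with which rows is not known. It is described alone, and the effect of such sharing on its proportions was not tested.

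The miR-148a and miR-148d rows carried nearly all reads of the family. In whole powder miR-148a had 45524 CPM in library A, 43833 in B and 64637 in C. In skimmed powder it had 44006 CPM in A, 53728 in B and 62001 in C. Library C was the highest of its powder in both cases, and the powders overlapped. The miR-148d row had 40110, 37782 and 56199 CPM in whole A, B and C, and 38485, 49183 and 56459 CPM in skimmed A, B and C. Its order among libraries differed from that of miR-148a only at the top, where skimmed C passed whole C. The exact 95% Poisson intervals, which cover counting error only, were 56294 to 56624 CPM for skimmed C and 56064 to 56333 CPM for whole C. They overlapped at their edges, with neither holding the value of the other library, and this gap was not tested. Summed, the rows reached 85634, 81615 and 120835 CPM in whole A, B and C, and 82491, 102911 and 118459 CPM in skimmed A, B and C.

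With its rows summed, miR-148a took second place by mean over the 6 goat libraries, at 98658 ± 18019 CPM (SD, n = 6), of which whole powder had 96028 ± 21578 and skimmed powder 101287 ± 18039 (SD, n = 3 each). The only miRNA above it was let-7a-5p, a member of the growth-restraining let-7 family, at 130577 ± 18560 CPM. Below it came let-7f at 67844 ± 4766 CPM, miR-21-5p at 59409 ± 11031 CPM and miR-30a-5p at 59326 ± 16263 CPM (SD, n = 6 each). The range of the miR-148a sum, 81615 to 120835 CPM, overlapped that of let-7a-5p, 102518 to 159274 CPM. It lay wholly above the ranges of let-7f and miR-21-5p, which ended at 74046 and 72022 CPM, and crossed that of miR-30a-5p, which reached 83105 CPM. Within single libraries the sum ranked first in whole C and second in the other 5 goat libraries. Taken as separate rows, miR-148a ranked 4 to 7 and miR-148d 5 to 9.

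The miR-148b row, whose gene sits within COPZ1, was far lower, with 82.2 to 136 reads of miR-148a and miR-148d for each of its reads in the goat libraries. It had 846, 993 and 1267 CPM in whole A, B and C, and 698, 891 and 868 CPM in skimmed A, B and C. The lowest library was skimmed A and the highest whole C, and the powders overlapped, since skimmed B and C lay above whole A. For skimmed C this order is within counting error, with exact 95% Poisson intervals of 848 to 889 CPM beside 824 to 869 CPM in whole A. The mean of miR-148b over goat was 927 ± 192 CPM (SD, n = 6), at rank 65 of the summed table. Its neighbours in that order, miR-101 at 992 ± 312 CPM and miR-660 at 913 ± 187 CPM, did not differ from it beyond their spread.

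The lowest member was miR-152, a miRNA that is encoded within COPZ2 in mammals, a paralog of COPZ1. With miR-148c added it had 93.9, 210 and 171 CPM in whole A, B and C, from 616, 2125 and 2043 reads. In skimmed A, B and C it had 212, 243 and 309 CPM, from 1968, 2013 and 2459 reads. Whole A was the lowest by a wide margin, and the skimmed libraries all exceeded the whole ones, though skimmed A and whole B were nearly level. Exact 95% Poisson intervals, which cover counting error only, were 203 to 222 CPM for skimmed A and 201 to 219 CPM for whole B, so this gap was not detectable at this depth. The mean over goat was 206 ± 71.9 CPM (SD, n = 6), at rank 102, between miR-2478 at 219 ± 73.7 CPM and miR-331-3p at 197 ± 94.1 CPM. The order of the miR-148a sum above miR-148b above the miR-152 sum held in all 7 libraries.

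**Figure D1:**
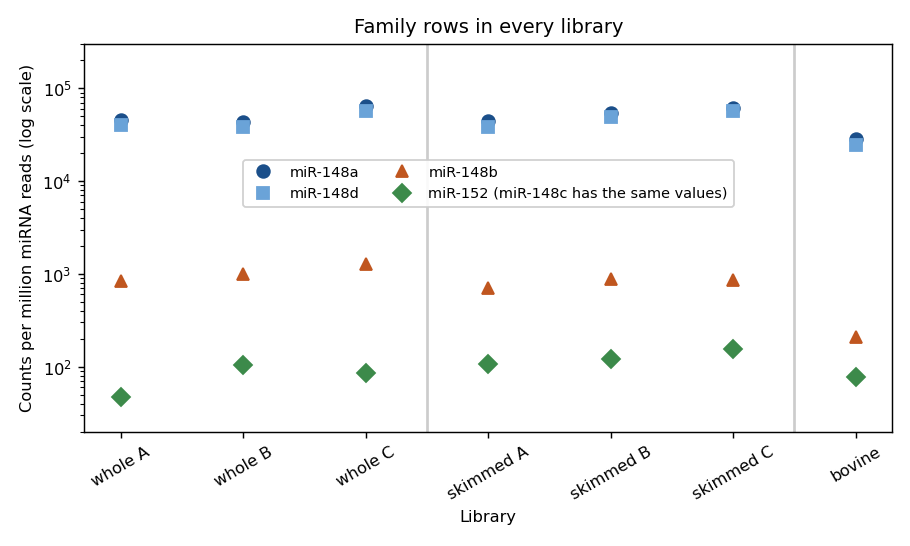
CPM (log axis) of the family rows in each of the 7 libraries, 1 point per row and library. The miR-148a and miR-148d points lie close together between 37782 and 64637 CPM in goat, miR-148b lies between 698 and 1267 CPM, and miR-152, whose values miR-148c repeats, between 46.9 and 155 CPM.

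The first comparison set skimmed against whole goat powder. Nothing in the labels says that both came from the same milk, so removal of fat and other differences between the products cannot be told apart. No member changed past the threshold. By edgeR's quasi-likelihood test, with p adjusted by Benjamini-Hochberg over 209 rows, 0 of the 5 rows had an adjusted p under 0.05, where 0.478% of all tested miRNAs had. With the sums in place of their rows, 0 of 3 passed, as did 0% of the 207 tested. At an unadjusted p under 0.05 there were 22 miRNAs in the first fit and 24 in the second, none of them a member. DESeq2's Wald test and limma-voom did not call a member either; DESeq2 gave the single rows of miR-152 and miR-148c no adjusted p. The call of 0 is read with the width of the intervals, which follow.

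For the sum of miR-148a and miR-148d, the log2 fold change of skimmed over whole was 0.09 ± 0.20 (SE), with a 95% interval from -0.37 to 0.56 and an edgeR adjusted p of 0.98. As single rows miR-148a had 0.14 ± 0.19 and miR-148d 0.19 ± 0.19. The sign of the sum was not settled by these data, since upper-quartile scaling gave -0.0019. It came to 0.39 without whole C, 0.24 without skimmed A and 0.16 without skimmed B, and to 0.04 without skimmed C and 0.02 without whole B. For miR-148b the log2 fold change was -0.32 ± 0.23 (SE), with a 95% interval from -0.86 to 0.21 and an edgeR adjusted p of 0.78. It came to -0.06 without whole C, its highest library. For miR-152 with miR-148c it was 0.71 ± 0.56 (SE), with an interval from -0.57 to 1.99 and an edgeR adjusted p of 0.81. It came to 0.51 without whole A, its lowest library, and to 1.00 without whole B. The intervals allow a change of either sign for each of the 3, and the median over all tested miRNAs was -0.04.

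Of the 5 rows, 2 had levels without overlap between the powders, the identical rows of miR-152 and miR-148c, where 20.1% of the 209 tested rows had none. With sums it was 1 of 3, against 19.8% of 207. After edgeR's scaling the sum of miR-152 and miR-148c was 206 CPM in whole B and 211 CPM in skimmed A, still without overlap.

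**Figure D2:**
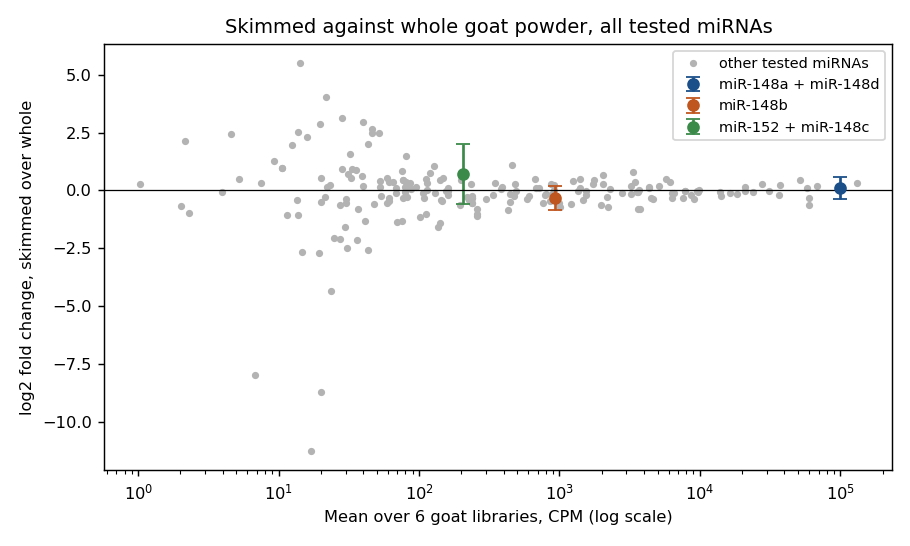
Log2 fold change of skimmed over whole goat powder from edgeR against the mean level over 6 goat libraries (log axis), 1 point per tested miRNA of the summed table, with 95% intervals for the 3 family values. All 3 intervals cross 0: the miR-148a sum sits at 0.09, miR-148b at -0.32 and the miR-152 sum at 0.71.

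The family as a whole took 8.66%, 8.28% and 12.2% of the miRNA reads of whole A, B and C, and 8.34%, 10.4% and 11.96% of those of skimmed A, B and C. Library C was again the highest in each powder. The means were 9.72% ± 2.18 and 10.2% ± 1.82 (SD, n = 3), a difference of 0.51 percentage points that was far inside the spread (exact two-sided permutation p = 0.9, where 3 against 3 allow no p below 0.1). Its sign turned without whole A, whole B or skimmed C, at -0.018, -0.21 and -0.35 points.

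Ratios within the family do not depend on how libraries are scaled, though they may depend on how shared reads were divided. The proportions of the members varied between libraries. Per 1000 reads of miR-148a and miR-148d, miR-148b had 9.88, 12.2 and 10.5 reads in whole A, B and C. In skimmed A, B and C it had 8.46, 8.65 and 7.33. Every skimmed library lay below every whole library. The means were 10.8 ± 1.18 and 8.15 ± 0.714 (SD, n = 3), a log2 difference of -0.41, which is 1.33-fold lower in skimmed. The exact two-sided permutation p was 0.1, the smallest that 3 against 3 allow, and 0.3 after Benjamini-Hochberg adjustment over the 3 single values tested in this way. Without each library in turn the log2 difference ran from -0.47 to -0.32, where the lack of overlap fixes its sign. Measured against the same rows, 10.6% of 123 miRNAs with at least 100 CPM were lower in skimmed without overlap. Their median difference was -0.19, and 36 of them had a lower value than miR-148b, which gives miR-148b no special place among them.

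The proportion of miR-152 with miR-148c moved the other way in its mean, with overlap. Per 1000 reads of miR-148a and miR-148d it had 1.10, 2.57 and 1.41 reads in whole A, B and C, and 2.57, 2.36 and 2.61 in skimmed A, B and C. Whole B lay within the skimmed range, while whole A and C lay well below it. The log2 difference was 0.66 (exact two-sided permutation p = 0.2, adjusted 0.3 over the 3 values), with SDs of 0.63 in whole and 0.08 in skimmed powder (log2, n = 3). It came to 0.40 without whole A and to 1.01 without whole B. Of the 123 miRNAs measured against the same rows, 117 had a lower difference, beside the median of -0.19.

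The balance between the scarcer members was looked at after these values were seen, and so is a description with no test. There were 9.02, 4.74 and 7.42 reads of miR-148b per read of miR-152 and miR-148c in whole A, B and C. In skimmed A, B and C there were 3.29, 3.67 and 2.81. The groups did not overlap. The log2 difference of -1.07 ranged from -1.34 to -0.87 without each library in turn, where the lack of overlap fixes the sign. Set against each of 123 other miRNAs of at least 100 CPM, miR-148b was lower in skimmed without overlap for 17.9%.

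**Figure D3:**
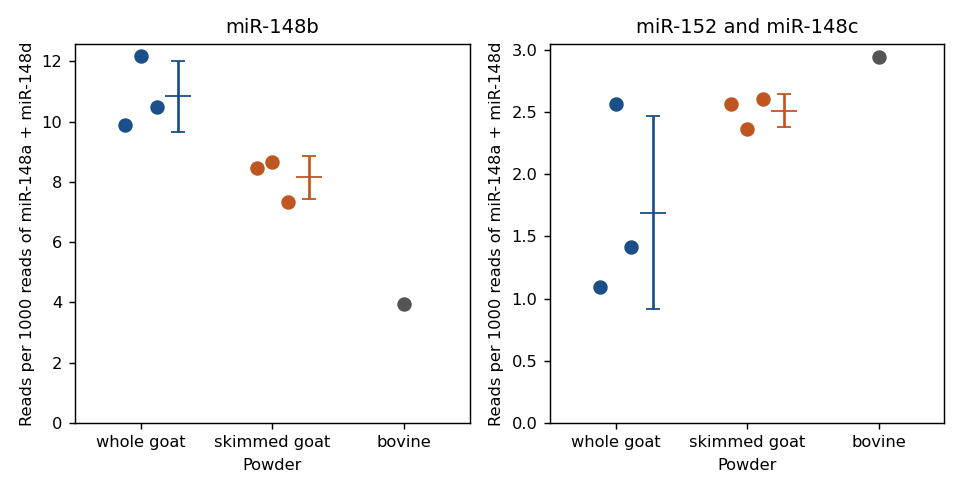
Reads of miR-148b (left) and of miR-152 with miR-148c (right) per 1000 reads of miR-148a and miR-148d, 1 point per library, with bars for mean ± SD of the 3 goat libraries of a powder. On the left the skimmed points, 7.33 to 8.65, lie below the whole points, 9.88 to 12.2, and the bovine point at 3.96 is lowest; on the right whole B at 2.57 lies among the skimmed points.

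The shares of other miRNA groups in the same libraries are given beside these proportions. Stromal miRNAs (3 rows: miR-143, miR-145 and miR-126-3p) took 0.149% to 0.165% of whole and 0.169% to 0.246% of skimmed reads, with miR-126-3p at 0 in all whole libraries and in skimmed C. By mean CPM miR-143 was higher in skimmed powder (1510 in whole, 2038 in skimmed). The scarce miR-145 was lower (33.9 and 21.2), and ran from 0 CPM in whole A to 101 CPM in whole B. Epithelial miRNAs took 9.85% to 10.4% and 10.5% to 11.4%. Their rows did not move together. By mean CPM miR-200c (34336 in whole, 40434 in skimmed) and miR-375 (25161 and 30579) were higher in skimmed powder, and every other epithelial row was lower. Leukocyte miRNAs (7 rows, led by miR-146b) took 2.16% to 2.55% and 2.27% to 2.52%, with overlap, and erythroid miR-486 took 0.00236% to 0.00728% and 0.00156% to 0.00386%. The part of these groups in the proportions of miR-148b and miR-152 was not tested.

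Lists of miRNAs related to the family by role or source were counted in the same fit. Of 23 tested miRNAs often abundant in milk, led by let-7a-5p, let-7f and miR-21-5p, 1 rose in skimmed powder in edgeR (miR-25) and 0 fell in the fit of the rows as deposited, where 0.478% of all rows were called, with 13 values above 0 and a median log2 fold change of 0.05. With the family's rows summed, the miR-25 call was lost (edgeR adjusted p = 0.05002). Of 12 tested miRNAs tied to mammary lipid metabolism, led by miR-21-5p, miR-30a-5p and miR-26a, 0 passed, 2 values were above 0 and the median was -0.16. Of 4 tested miRNAs that, like this family, target DNA methyltransferases (miR-29a, miR-143, miR-29c and miR-29b), 0 passed and the median was -0.09. Over all 209 tested rows the median was 0.03. No epithelial (7 tested), leukocyte (6), erythroid (1) or stromal (2) miRNA passed, with medians of -0.09, 0.13, -0.72 and -0.02.

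The second comparison set the single bovine library beside the goat libraries, where species, product and library cannot be told apart and no test was made. The sum of miR-148a and miR-148d stood at 52693 CPM (95% Poisson interval 52504 to 52882), 1.87-fold below the goat mean and under the lowest goat library. Its rank fell to 7. The miR-148b row stood at 208 CPM (197 to 221), 4.45-fold below the goat mean and under all 6 goat libraries. The sum of miR-152 and miR-148c, at 155 CPM (145 to 166), lay inside the goat range of 93.9 to 309 CPM. The family held 5.31% of bovine miRNA reads, less than in any goat library.

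Levels in this comparison depend on the scaling. Of 124 miRNAs with at least 100 CPM in goat, 55.6% lay below the goat range in the bovine library, where 2 of the 3 family values did. A value under 0.5 of the goat mean was found for 46.0% of them, and in the family for miR-148b. The median of all 124 was -0.77 (log2 of CPM + 1, bovine over goat), and 29 of them lay below -5. These miRNAs were chosen by their level in goat alone, so any abundant only in the bovine library were left out. The shares and the median can therefore lean toward lower bovine values. Against that median the miR-148a sum stood at -0.13, miR-148b at -1.37 and the miR-152 sum at 0.37, with 60, 40 and 71 of the 124 below each. With TMM over all 7 libraries the log2 values themselves were -0.35, -1.59 and 0.14, and with DESeq2 size factors 0.24, -0.9997 and 0.73. The miR-148a and miR-152 sums were therefore lower or higher in the bovine library according to the scaling, while miR-148b was lower under all 3.

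**Figure D4:**
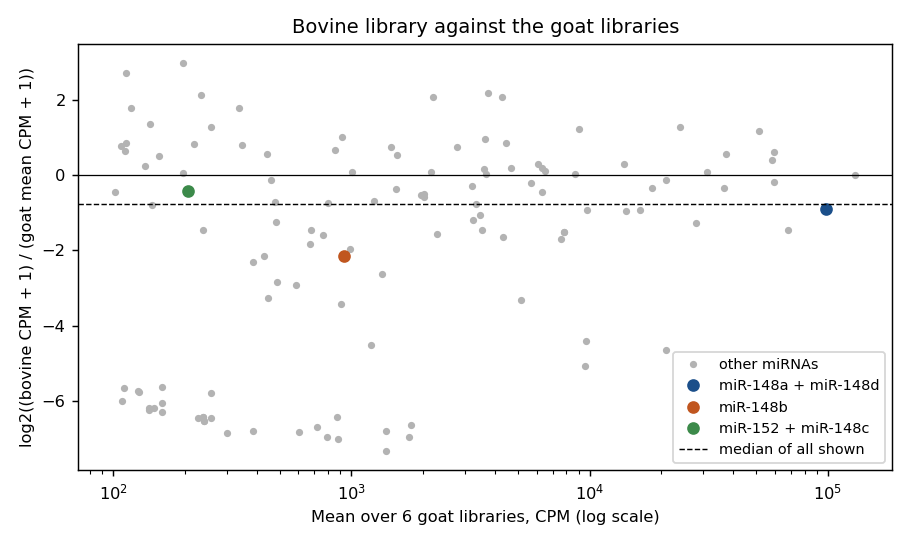
Log2 of bovine CPM over mean goat CPM, each with 1 CPM added, against the goat mean (log axis) for 124 miRNAs with at least 100 CPM in goat; the dashed line is their median, -0.77. The miR-148a sum lies near that line, miR-148b 1.37 below it and the miR-152 sum 0.37 above it.

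Free of scaling, the bovine library had 3.96 reads of miR-148b per 1000 reads of miR-148a and miR-148d, against 7.33 to 12.2 in goat, 2.37-fold below the geometric mean of the 6 goat libraries. For miR-152 with miR-148c it had 2.95 reads per 1000, above every goat library, where the highest was 2.61. The bovine library thus had 1.34 reads of miR-148b per read of miR-152 and miR-148c, against 2.81 to 9.02 in goat. Marker miRNAs of other cell types took smaller shares there. The 7 leukocyte rows summed to 0.0933% of bovine reads against 2.16% to 2.55% in goat, with miR-142-3p and miR-150 at 0. The 3 stromal rows summed to 0.00172% against 0.149% to 0.246%, with miR-126-3p at 0, while epithelial miRNAs took 10.6%. That epithelial sum hides rows that moved apart. By CPM miR-375 was lower in the bovine library (11535 against a goat mean of 27870) and miR-200c higher (55374 against 37385). For miR-200b the values were 32904 and 31225, and the less abundant epithelial rows went both ways. No source used here states how goat reads were counted under bovine names, and the part of naming and of these markers in the family's proportions was not tested.

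The miRNAs most like the miR-148a sum across the 6 goat libraries were miR-29a, let-7i, miR-22-3p, miR-29c and miR-3600, of 123 compared. Their Pearson r of log2(CPM + 1) with the sum was 0.79, 0.72, 0.70, 0.69 and 0.69, and their Spearman rho 0.89, 0.89, 0.77, 0.54 and 0.77. The rows of miR-22-3p and miR-3600 were nearly equal, at 7798 and 7819 CPM over goat and 2727 CPM each in the bovine library. They may share reads and are not taken as independent. The members of the family came later: miR-148b held place 12 (r 0.55, rho 0.37) and miR-152 with miR-148c place 26 (r 0.39, rho 0.14). Without whole C and skimmed C, the libraries farthest from the median of the sum, r was 0.44 for miR-29a, 0.89 for let-7i, 0.41 for miR-22-3p, 0.17 for miR-29c and 0.40 for miR-3600, and 0.18 for miR-148b and 0.30 for miR-152 with miR-148c. These values share library totals and describe 6 libraries only.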

How the data were processed

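Per the labels' protocols, total RNA including small RNA was extracted, small RNA libraries were gel-selected by size, and single reads of 50 bases were sequenced. The deposited tables give estimated counts per mature miRNA under bovine names. Some are fractions of a read, which may come from reads that match several entries. The aligner, counter, miRNA reference and build are named in no source used here. The deposited estimated counts are not scaled: totals ran from 5675489 to 11963849.

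CPM used all 364 rows. For tests, counts were rounded and fitted over the 6 goat libraries with edgeR 4.0.16 in R 4.3.3 (default filter on low counts, TMM factors 0.928 to 1.067 for the rows as deposited, quasi-likelihood, Benjamini-Hochberg, threshold 0.05), once with rows as deposited and once with read-sharing rows summed. SE is the fold change over the root of F. Single values had exact permutation tests. DESeq2 1.42.0 and limma 3.58.1 were alternatives. The fit was tested on simulated data. Libraries of 1 powder differed by 497 to 1642 in chi-square per degree of freedom, so none was a copy.

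Members, 7 lists of related and cell type miRNAs, and tests were chosen with earlier results of these data known. The miRNAs named are the members, their neighbours in level, the 5 most alike of at least 100 CPM, and the 3 most abundant of each list; any other is named as a member of a count or as a marker at 0. No miRNA sequences were used here.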

Additional observations from a re-analysis of the deposited data

How the results depend on the processing

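In 14 alternative fits (scaling, filter, tool, replicate block, each library left out), 0 members were called. The lowest adjusted p in edgeR, DESeq2 or limma over these fits was 0.36, for the miR-148d row. The log2 fold change of the miR-148a sum ran from 0.02 to 0.39 without each library in turn, that of miR-148b from -0.39 to -0.06 and that of the miR-152 sum from 0.51 to 1.00. Upper-quartile scaling reversed the sign of the miR-148a sum (-0.0019) and of the miR-148a row (-0.0098). Over all 207 miRNAs of the summed table edgeR called 0, but 2 without a filter, 4 of those with at least 100 CPM, and 0 to 1 without each library; DESeq2's Wald test called 11. The family's share differed by -0.35 to 1.77 points without each library. Bovine log2 values moved with scaling: -0.35, -1.59 and 0.14 with TMM, and 0.24, -0.9997 and 0.73 with DESeq2 size factors, for the miR-148a sum, miR-148b and the miR-152 sum, against -0.90, -2.15 and -0.41 with library totals. The cause was not tested. Deviations of libraries of one letter correlated at -0.09 (A), 0.07 (B) and 0.37 (C) over 126 miRNAs, and those of unlike letters at -0.26 to 0.16. The value for C was the highest of all pairings, while those for A and B lay within the range of unlike letters. The letters were not taken to pair libraries. With the letter as a replicate block the log2 fold changes were 0.10, -0.31 and 0.77 and 0 members were called. Counting error was small beside the spread between libraries for all members, but it leaves some close pairs of libraries without an order. Among them were skimmed A and whole B for miR-148a and for miR-152. Another was skimmed C and whole A for miR-148b. For miR-148d the intervals of skimmed C and whole C overlapped only at their edges, and that gap was not tested.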

Other observations

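The spread of the family's members between goat libraries lay within the range of other miRNAs at their level, though above the median for the miR-148a sum. Over the 6 goat libraries the coefficient of variation was 18.3% for the sum of miR-148a and miR-148d, where 14 miRNAs of at least 20000 CPM, itself included, had a median of 13.4% and 4 of them a higher value. For miR-148b it was 20.7%, where 27 miRNAs between 500 and 2000 CPM had a median of 22.1%. For miR-152 with miR-148c it was 34.9%, which was also the median of 61 miRNAs between 100 and 1000 CPM.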
